A study of Mus musculus with 18 samples.

Results

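Interferon response and RNA sensor genes were examined in whole mouse embryos at E11.5, to ask whether reduced DNA methylation in Dnmt3b mutants comes with the antiviral transcription that has been termed viral mimicry. The members are 9 genes, chosen by symbol, out of 34244 named genes in the expression table. They comprise the RNA sensors Ddx58 and Ifih1, the transcription factor Irf7, and the interferon-stimulated genes Isg15, Ifit1, Ifit3, Rsad2, Oas1a and Mx1. RNA-seq was made from 1 library of each of 9 FVB embryos, with 3 Dnmt3b+/+, 3 Dnmt3b-/- and 3 Dnmt3bCI/CI. The Dnmt3b-/- embryos carry a conventional, germline deletion in every cell, and the Dnmt3bCI/CI embryos carry a knock-in allele that replaces catalytic residues of the methyltransferase and was designed to make a catalytically inactive protein. Only live embryos were taken for analysis in the study, and each library is of a whole embryo and therefore mixes all tissues. Expression is given in FPKM, the number of reads on a gene scaled by the length of its exons in kilobases and by the library size. DNA methylation itself was not analysed here.

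Cells recognise foreign nucleic acid through cytoplasmic sensors. RIG-I, encoded by Ddx58, and MDA5, encoded by Ifih1, bind viral or endogenous duplex RNA and signal through the adaptor Mavs, whereas cGAS binds DNA and signals through Sting. Both routes activate the transcription factors Irf3 and Irf7, which induce type I interferons. Secreted interferon then acts through its receptor and the JAK-STAT pathway to bring transcription factors, Irf9 among them, to a short promoter element and so to induce a broad set of antiviral genes. Because transcripts of unmethylated retroviral elements can serve as duplex RNA, inhibitors of DNA methylation are known to set off this response in cancer cells.

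Most promoters of the members hold letters that match the element on which this response acts, and these matches are shown because they are a sequence feature that members share and that did not enter their choice. RefSeq promoter sequences on build GRCm38.p6, each of 300 bases with 250 before the transcription start and 50 after it, were matched for 8 of the 9 members, all except Mx1. They were searched on both strands, overlapping matches included, for GAAANNGAAA, the core of the interferon-stimulated response element. A match was present in 7 of the 8 promoters (87.5%), in 21 of 46 promoters of other interferon-stimulated genes (45.7%) and in 1131 of all 32851 promoters of the same length (3.44%). The windows below are of 30 bases, are written 5′ to 3′ on the strand of the gene, and have the matched bases in capitals.
Isg15 (chr4:156200871-156200900, minus strand): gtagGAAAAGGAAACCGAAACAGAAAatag
Oas1a (chr5:120907523-120907552, minus strand): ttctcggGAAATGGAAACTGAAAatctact
Ifit1 (chr19:34640785-34640814, plus strand): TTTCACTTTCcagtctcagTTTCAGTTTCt
Ifit3 (chr19:34583397-34583426, plus strand): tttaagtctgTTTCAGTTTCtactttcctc
Rsad2 (chr12:26456553-26456582, minus strand): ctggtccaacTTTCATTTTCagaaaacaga
Ddx58 (chr4:40239804-40239833, minus strand): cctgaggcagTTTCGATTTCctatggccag
Ifih1 (chr2:62646206-62646235, minus strand): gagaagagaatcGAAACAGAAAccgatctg
Isg15 holds 3 overlapping matches and Oas1a holds 2, Ifit1 holds 2 matches side by side, and a second match of Ifit3 lies outside the window shown. The matches of Ddx58 and Ifih1 begin at bases 3 and 33 of the transcript, and those of the other 5 genes begin from 14 to 156 bases before the start. No match was found in the 300 bases of Irf7, which says only that these letters are not in this window. The 8 promoters are poor to moderate in CpG, from 1 CpG in Ifit3 to 15 in Ddx58 with a median of 6, compared with a median of 7 over all promoters and of 20 over 19 promoters of germline genes silenced by methylation.

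Some libraries stood apart before any member was considered. The libraries were normalised to 38451730 to 49808778 reads. Dnmt3b, summed over the whole gene, was 2.25, 1.62 and 2.04 FPKM in Dnmt3b+/+ embryos and 2.45, 3.12 and 3.33 FPKM in the embryos labelled Dnmt3b-/-. The gene was thus not lower in the knockout libraries (log2 fold change 0.57, SE 0.15, adjusted p = 0.0248 by limma). A sum over all exons is no check on a deletion within the gene. These embryos are named by their label. Dnmt3b+/+ replicate 2 nearly lacked liver transcripts, with Afp at 0.119 FPKM against 23.8 to 93.3 FPKM in the other embryos. Dnmt3b+/+ replicate 1 and Dnmt3bCI/CI replicate 3 were low in the heart gene Myh6, at 0.363 and 0.590 FPKM against 5.38 to 17.1 FPKM. Of 20 tissue markers, 2 were higher and 2 lower in Dnmt3b-/- against Dnmt3b+/+ by the adjusted p, where 25.8% of all genes passed in either direction. The primitive globins Hbb-bh1 and Hba-x rose by 3.01 and 1.79 on the log2 scale, and the collagens Col1a1 and Col2a1 fell by 1.23 and 0.78, the latter with overlapping groups. The part that these tissue differences have in the levels of the members was not tested. The main counts were also made without Dnmt3bCI/CI replicate 3 or Dnmt3b+/+ replicate 2.

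All 9 members were at very low levels in every embryo, at most 1.2 FPKM, and no member passed both thresholds in any comparison of genotypes. A gene was tested if it reached 0.1 FPKM in at least 3 of the 9 embryos, and it was called when its adjusted p in limma was under 0.05 and its fold change at least 2. Of the 9 members, 5 were tested (Ddx58, Irf7, Isg15, Rsad2 and Oas1a), and Ifih1, Ifit1, Ifit3 and Mx1 fell below this filter. In Dnmt3b-/- against Dnmt3b+/+ embryos 0 of the 5 were called, against 4.45% of all 19397 genes tested. For Dnmt3bCI/CI against Dnmt3b+/+ the number was also 0, against 0.129%, and for Dnmt3b-/- against Dnmt3bCI/CI it was 0, against 5.42%. The calls over all genes were 208 higher and 655 lower in Dnmt3b-/- against Dnmt3b+/+ and 213 higher and 838 lower between the mutants, and after quantile normalization they were 272 and 392, and 330 and 495. That normalization also moved the median log2 fold change of all genes between the mutants from -0.08 to 0.03. When the adjusted p alone is counted, 1 member passed in Dnmt3b-/- against Dnmt3b+/+ (25.8% of all genes did), 0 in Dnmt3bCI/CI against Dnmt3b+/+ (0.144%) and 1 in Dnmt3b-/- against Dnmt3bCI/CI (27.9%). At an unadjusted p under 0.05 these limma counts were 1, 2 and 2. Over all 19397 genes tested, 2838 were higher and 4921 lower at that p in Dnmt3b-/- against Dnmt3b+/+. In Dnmt3bCI/CI against Dnmt3b+/+ they were 524 and 495, and between the mutants 2906 and 5227. These all-gene numbers also apply to the unadjusted counts of the lists below with all embryos. Limma with voom weights on the reads, the other tool run, called 1, 0 and 0 members. Of all 19390 genes in that fit it called 261 higher and 1009 lower, 20 and 0, and 271 and 1207. In bulk tissue, fewer cells of a type and less RNA per cell cannot be told apart.

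**Figure D1:**
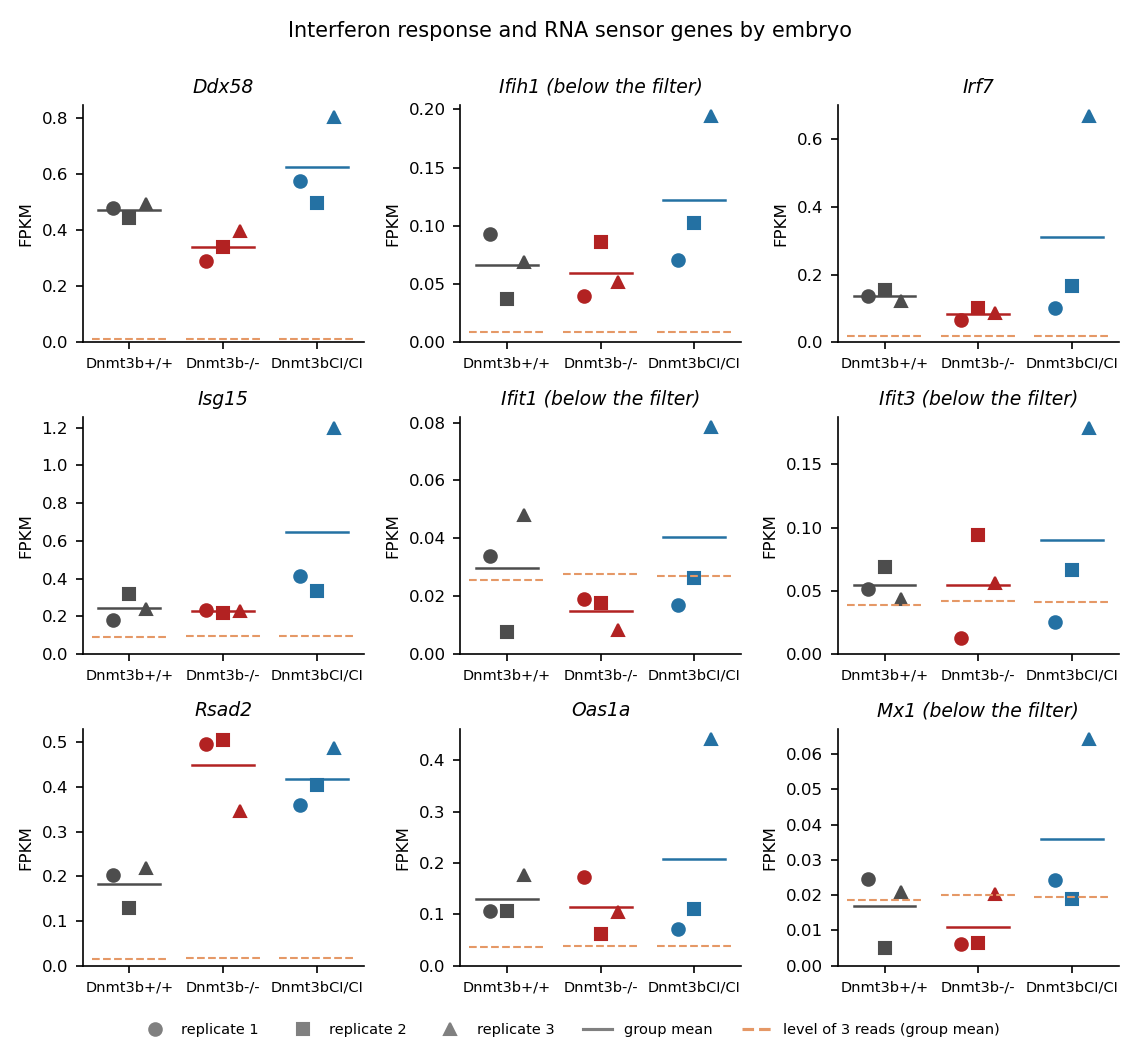
FPKM of each member (y axis, linear, starting at 0, a separate scale for each gene) in the 3 embryos of each genotype (x axis); solid lines are group means and dashed lines the level that 3 reads give. Rsad2 was higher in all 6 mutant embryos, from 0.347 to 0.505 FPKM, than in the 3 Dnmt3b+/+ embryos, and for the other 8 genes Dnmt3bCI/CI replicate 3 (blue triangle) was the highest of the 9 embryos.

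Ddx58 encodes RIG-I, the helicase that recognises short duplex RNA with a 5′ triphosphate. The gene lies on chromosome 4 (chr4:40203773-40239828, GRCm38, minus strand). It was at 0.477, 0.441 and 0.492 FPKM in Dnmt3b+/+ embryos, at 0.288, 0.340 and 0.395 FPKM in Dnmt3b-/- embryos and at 0.575, 0.495 and 0.804 FPKM in Dnmt3bCI/CI embryos. The 3 genotypes thus did not overlap: every Dnmt3b-/- embryo was below, and every Dnmt3bCI/CI embryo above, all Dnmt3b+/+ embryos. Between Dnmt3bCI/CI and Dnmt3b+/+ the gap was 0.495 against 0.492 FPKM (151 and 136 reads), well within counting error. These values rest on 81 to 218 reads per embryo, the most of any member in sum. Ddx58 fell in Dnmt3b-/- relative to Dnmt3bCI/CI by 0.70 on the log2 scale of FPKM + 0.1 (SE 0.17, adjusted p = 0.018 by limma). Relative to Dnmt3b+/+ the difference was -0.38 (SE 0.17, 95% interval -0.76 to 0.01, adjusted p = 0.135) in Dnmt3b-/- and 0.32 (SE 0.17, interval -0.06 to 0.71, adjusted p = 0.949) in Dnmt3bCI/CI, and neither passed the test. Without Dnmt3bCI/CI replicate 3 the difference between the mutants was -0.53 with an adjusted p of 0.0513 in limma, without Dnmt3b-/- replicate 2 the adjusted p was 0.0534, and after quantile normalization the difference was -0.44 with an adjusted p of 0.108.

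Ifih1, on chromosome 2 (chr2:62595798-62646255, minus strand), encodes MDA5, the helicase that recognises long duplex RNA. It was at 0.0933, 0.0369 and 0.0687 FPKM in Dnmt3b+/+ embryos, at 0.0399, 0.0864 and 0.0513 FPKM in Dnmt3b-/- embryos and at 0.0709, 0.102 and 0.194 FPKM in Dnmt3bCI/CI embryos. The genotypes overlapped, and the highest value, in Dnmt3bCI/CI replicate 3, came from 61 reads against 13 to 36 reads in the other embryos. With the filter removed, the log2 fold changes of Ifih1 were -0.06 in Dnmt3b-/- and 0.40 in Dnmt3bCI/CI relative to Dnmt3b+/+ (adjusted p = 0.849 and 0.867 by limma).

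Irf7 encodes the transcription factor that amplifies interferon production and is itself induced by interferon (chr7:141262706-141266481, minus strand). It was at 0.136, 0.154 and 0.122 FPKM in Dnmt3b+/+, at 0.0664, 0.0997 and 0.0849 FPKM in Dnmt3b-/- and at 0.1, 0.165 and 0.668 FPKM in Dnmt3bCI/CI embryos. The 3 Dnmt3b-/- embryos were the 3 lowest, and Dnmt3bCI/CI replicate 3 was 4.04 times the next highest embryo. The log2 difference from Dnmt3b+/+ was -0.37 (SE 0.42, 95% interval -1.33 to 0.59, adjusted p = 0.548 by limma) in Dnmt3b-/-. In Dnmt3bCI/CI it was 0.54 (SE 0.42, adjusted p = 0.949) with all embryos and -0.04 (adjusted p = 0.999) without replicate 3. For Irf7, no genotype difference passed the test.

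Isg15 encodes a ubiquitin-like protein that is conjugated to other proteins in interferon-treated cells (chr4:156199424-156200818, minus strand). Its values were 0.178, 0.319 and 0.236 FPKM in Dnmt3b+/+, 0.232, 0.218 and 0.228 FPKM in Dnmt3b-/- and 0.412, 0.336 and 1.2 FPKM in Dnmt3bCI/CI embryos. All 3 Dnmt3bCI/CI embryos exceeded the other 6, and replicate 3 was 2.92 times the next highest. Apart from the 35 reads of that embryo, Isg15 had 6 to 14 reads per embryo, close to the limit of 3 reads below which a level cannot be told from 0. The log2 difference of Dnmt3bCI/CI from Dnmt3b+/+ was 0.97 (SE 0.37, 95% interval 0.13 to 1.81, adjusted p = 0.898 by limma) and that of Dnmt3b-/- from Dnmt3bCI/CI was -1.02 (SE 0.37, adjusted p = 0.0686). Without Dnmt3bCI/CI replicate 3 these became 0.48 and -0.54, with adjusted p-values of 0.999 and 0.0954 in limma. In the knockout the difference from Dnmt3b+/+ was -0.06, with an interval of -0.90 to 0.78.

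Rsad2 was the single member to pass the adjusted test against Dnmt3b+/+. It encodes viperin, a radical SAM enzyme that makes a chain-terminating nucleotide and so stops viral RNA synthesis (chr12:26442746-26456452, minus strand). Its level was 0.202, 0.130 and 0.218 FPKM in Dnmt3b+/+, 0.497, 0.505 and 0.347 FPKM in Dnmt3b-/- and 0.360, 0.405 and 0.486 FPKM in Dnmt3bCI/CI embryos. All 6 mutant embryos were above all 3 Dnmt3b+/+ embryos, with 61 to 93 reads each against 28 to 39, and the mutant genotypes overlapped. Rsad2 rose in Dnmt3b-/- embryos by 0.96 on the log2 scale (SE 0.18, 95% interval 0.54 to 1.38, adjusted p = 0.00833 by limma), just under the fold threshold. Because 0.1 FPKM is added before the logarithm, the change of a gene at this level is understated, and on the reads it was 1.34 (SE 0.24, adjusted p = 0.00673 by limma with voom weights), past both thresholds. In Dnmt3bCI/CI the difference was 0.88 (SE 0.18, 95% interval 0.46 to 1.29), with an adjusted p of 0.33 in limma. The difference between the mutants was 0.08, with an interval of -0.33 to 0.50. Rsad2 was also the single member in which Dnmt3bCI/CI replicate 3 was not the highest embryo, and without that embryo its difference between Dnmt3bCI/CI and Dnmt3b+/+ was 0.78.

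The next gene on the chromosome, Cmpk2, was looked at after the values of Rsad2 were seen. It encodes a mitochondrial nucleotide kinase induced by interferon, and it starts 12752 bp from the start of Rsad2 on the opposite strand. It was at 0.694, 0.719 and 0.717 FPKM in Dnmt3b+/+, 0.867, 1.18 and 0.960 FPKM in Dnmt3b-/- and 0.663, 0.710 and 1.05 FPKM in Dnmt3bCI/CI embryos. Dnmt3b-/- embryos were thus above all Dnmt3b+/+ embryos, while 2 of the 3 Dnmt3bCI/CI embryos were not. Cmpk2 did not pass the adjusted test in any comparison.

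Oas1a encodes an oligoadenylate synthetase, which upon binding duplex RNA makes a short oligoadenylate messenger (chr5:120896256-120907521, minus strand). It was at 0.107, 0.107 and 0.176 FPKM in Dnmt3b+/+, at 0.173, 0.0624 and 0.105 FPKM in Dnmt3b-/- and at 0.0709, 0.11 and 0.441 FPKM in Dnmt3bCI/CI embryos. The genotypes overlapped, and without Dnmt3bCI/CI replicate 3 the 8 remaining embryos spanned 5 to 13 reads. The log2 difference from Dnmt3b+/+ was -0.13 (SE 0.40, interval -1.05 to 0.80, adjusted p = 0.836 by limma) in Dnmt3b-/- and 0.24 (SE 0.40, adjusted p = 0.973) in Dnmt3bCI/CI. It was -0.26 in Dnmt3bCI/CI without replicate 3.

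The remaining members were at the limit of detection. Ifit1 and Ifit3 encode tetratricopeptide proteins, of which Ifit1 binds viral RNA that lacks a methylated cap, and they lie in 1 cluster on chromosome 19 (chr19:34640871-34650009 and chr19:34583531-34588731, plus strand). Reads of Ifit1 numbered 4, 1 and 5 in Dnmt3b+/+, 2, 2 and 0 in Dnmt3b-/- and 2, 3 and 8 in Dnmt3bCI/CI embryos. For Ifit3 the corresponding numbers were 4, 6 and 3, then 0, 7 and 4, then 2, 5 and 12. Mx1, the dynamin-like GTPase that restricts influenza virus (chr16:97447035-97462907, minus strand), had 4, 0 and 3 reads, then 0, 1 and 3, then 4, 3 and 9. In all 3 genes the genotypes overlapped and the highest embryo was Dnmt3bCI/CI replicate 3, at 0.0783, 0.179 and 0.0642 FPKM. A count of 0 allows up to 3 reads, which correspond to 0.0279 FPKM for Ifit1, 0.0431 FPKM for Ifit3 and 0.0165 to 0.0206 FPKM for Mx1 in the libraries concerned. Ifit3 and Oas1a have near-identical neighbouring copies, and reads that map to several places were removed by the mapping-quality filter of the authors, so their levels are uncertain.

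**Figure D2:**
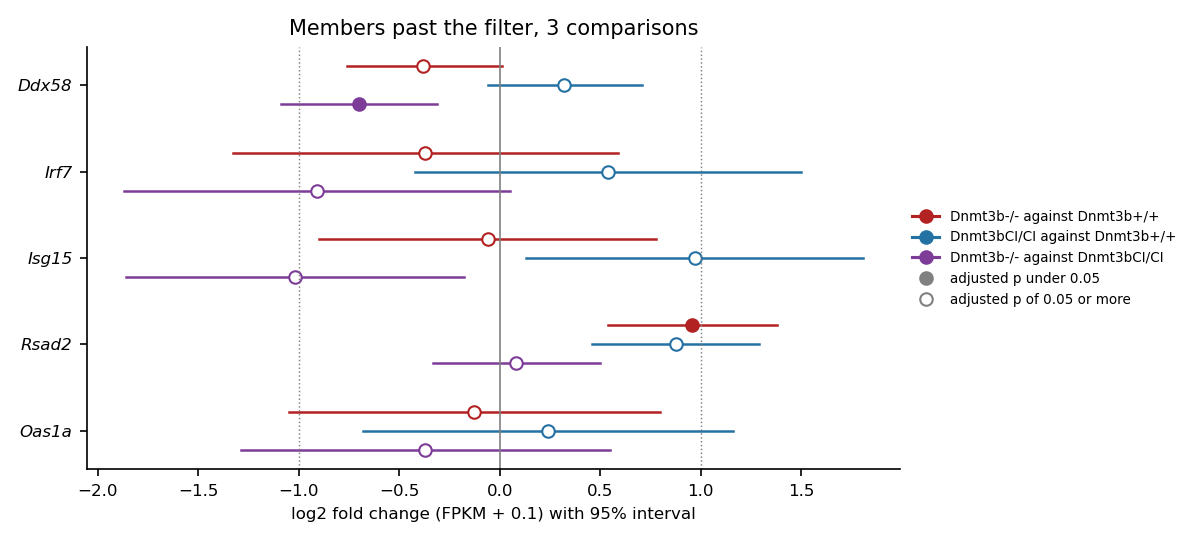
Log2 fold change of FPKM + 0.1 (x axis) with its 95% interval for the 5 members tested (y axis) in the 3 comparisons of genotypes; filled points have an adjusted p under 0.05 in limma, and dotted lines mark a fold of 2. The filled points are Rsad2 in Dnmt3b-/- against Dnmt3b+/+ (0.96) and Ddx58 in Dnmt3b-/- against Dnmt3bCI/CI (-0.70), and both lie inside the dotted lines.

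Counted by overlap, 1 of the 5 members tested (Rsad2) was higher in every Dnmt3b-/- embryo than in every Dnmt3b+/+ embryo, against 15.1% of all genes, and 2 (Ddx58 and Irf7) were lower, against 23.8%. In Dnmt3bCI/CI, 3 members (Ddx58, Isg15 and Rsad2) were above all Dnmt3b+/+ embryos, against 7.53% of all genes, and 0 were below, against 5.65%. Between the mutants 0 were higher in Dnmt3b-/-, against 16.7%, and 3 (Ddx58, Irf7 and Isg15) were lower, against 29.5%. These comparisons share embryos, so the counts do not stand independently of one another. Some gaps were within counting error. These were Ddx58 in Dnmt3bCI/CI against Dnmt3b+/+ (0.495 and 0.492 FPKM) and Irf7 between the mutants (0.0997 and 0.1 FPKM). The median log2 fold change of the 5 members was -0.13 in Dnmt3b-/- against Dnmt3b+/+ (all genes -0.07), 0.54 in Dnmt3bCI/CI against Dnmt3b+/+ (all genes 0.02) and -0.70 between the mutants (all genes -0.08). The medians that involve Dnmt3bCI/CI were 0.15 and -0.33 without its replicate 3.

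One embryo accounted for most of the high values. Dnmt3bCI/CI replicate 3 was the highest of the 9 embryos for 8 of the 9 members, and for 4 of the 5 that were tested, against 10.7% of all genes tested. This embryo was singled out after its values were seen. Summed over the 9 members its level was 4.12 FPKM, against 1.66 and 1.72 FPKM in the other Dnmt3bCI/CI embryos and 1.27 to 1.43 FPKM in the remaining 6. The 3 Dnmt3bCI/CI embryos thus had the 3 highest sums. For Irf7 it held 97 reads and the other 8 embryos together 153, a ratio of 5.69 after scaling by library size (95% exact interval 4.36 to 7.38, counting error only). The corresponding ratio was 4.42 (2.86 to 6.72) for Isg15, 3.93 (2.51 to 6.03) for Oas1a and 1.83 (1.57 to 2.12) for Ddx58.

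Most other interferon-stimulated genes moved with the members in that embryo. Of 58 further genes known to be induced by interferon, 40 were tested, and 26 of these (65%) were highest in Dnmt3bCI/CI replicate 3, against the same 10.7% of all genes. Rtp4, a receptor transporter protein, reached 1.1 FPKM against 0.081 to 0.261 FPKM in the other 8 embryos. Bst2, which encodes tetherin and holds budding virus at the cell surface, reached 8.29 FPKM against 1.91 to 3.70 FPKM. The deISGylating protease Usp18 was at 0.429 FPKM against 0.0864 to 0.209 FPKM, and the immunity-related GTPase Irgm1 at 0.586 FPKM against 0.0934 to 0.257 FPKM. Of the 18 genes below the filter, 1 had no read, 12 were highest in this embryo and 5 were not, and of all genes below the filter with a read 22.4% were highest there. Ifi44 had 24 reads in this embryo and 14 in the other 8 together, Oasl2 had 71 and 139, and Xaf1 had 32 and 56, whereas Ifit1bl2 had 0 and 25, Ifit3b 1 and 7 and Cxcl10 4 and 27. Only 14 of all 19397 genes tested (0.0722%) were at least 2 times the next highest embryo there, and 9 of the 14 were Irf7, Isg15, Oas1a, Rtp4, Bst2, Irgm1, Slfn5, Parp14 and Usp18. Of these, Parp14 passed the filter only through its level in Dnmt3bCI/CI embryos, so its place there is not independent of the filter. Irf9, a transcription factor that acts on the response element, was at 2.94 FPKM against 1.72 to 2.27 FPKM. The broadly expressed Ifitm2 was at 87.3 FPKM against 52.9 to 83.1 FPKM. Tested genes that were not raised there included Ifit2, at 1.01 FPKM against 0.849 to 1.33 FPKM in the other embryos. Iigp1 was at 0.15 FPKM against 0.134 to 0.35 FPKM, and Ifi204 at 0.526 FPKM against 0.22 to 0.798 FPKM.

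**Figure D3:**
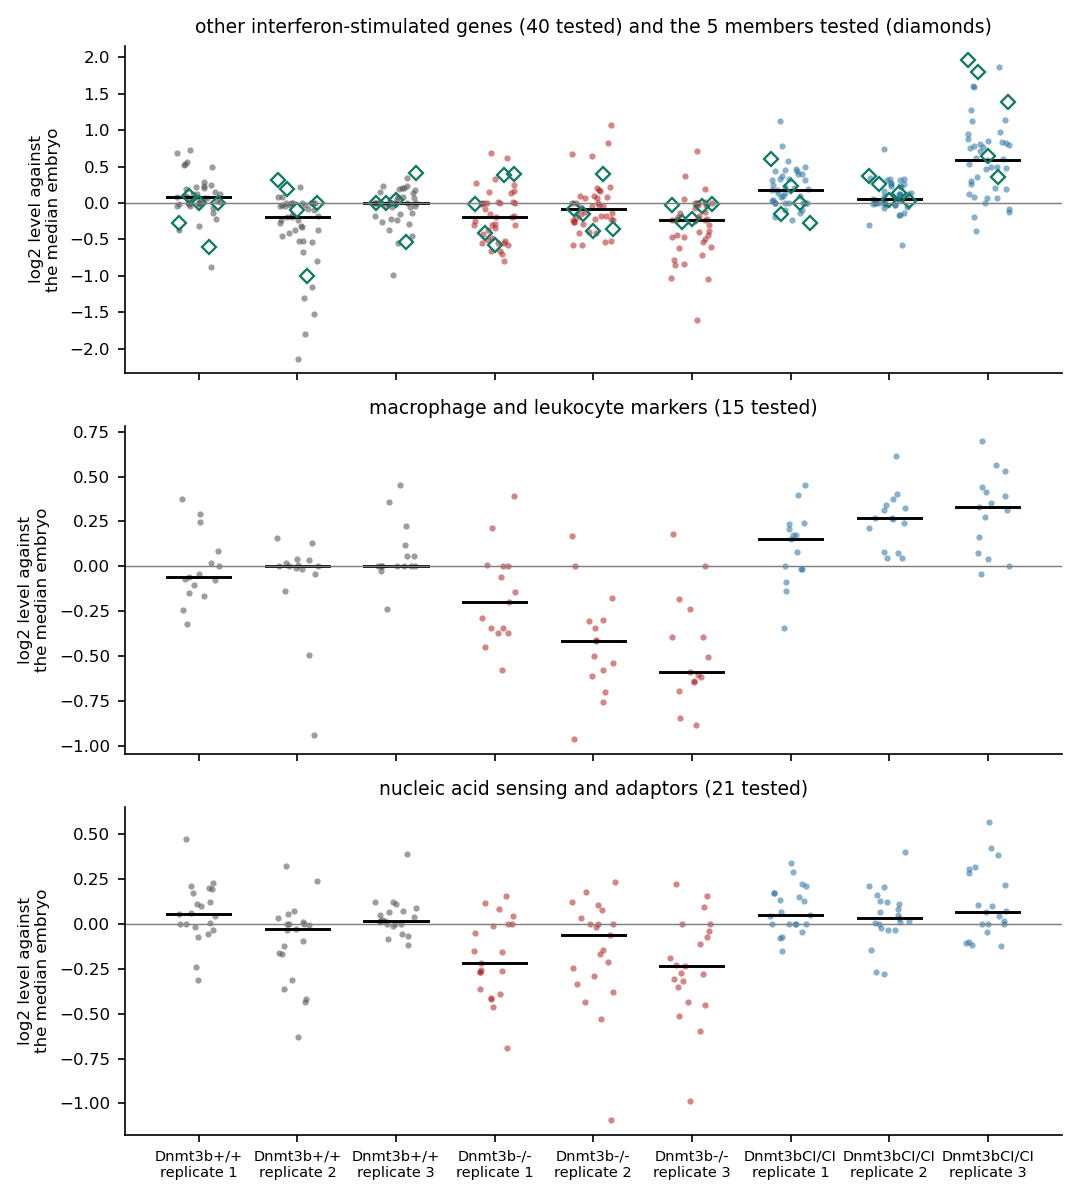
Log2 level of FPKM + 0.1 in each embryo relative to the median of the 9 embryos (y axis) for tested genes of 3 lists; each dot is 1 gene, diamonds in the top panel are the 5 members tested, black lines are list medians and the y scale differs between panels. In Dnmt3bCI/CI replicate 3 the median of the other interferon-stimulated genes was 0.59 and that of the nucleic acid sensing genes was 0.07, while macrophage and leukocyte markers were lowest in the Dnmt3b-/- embryos.

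The similarity of the members to one another was described by Pearson correlation of log2(FPKM + 0.1) over the 9 embryos, which share Dnmt3bCI/CI replicate 3 as an extreme point. Isg15 and Irf7 were correlated at 0.896 and Ddx58 and Irf7 at 0.826. Rsad2 was not like them, at 0.132 with Irf7, 0.313 with Isg15 and -0.063 with Ddx58. Among all genes tested, Irf7 was most like Irf9 (0.944) and Gm27017 (0.939), and Isg15 was most like Bst2 (0.931) and Lmf1 (0.897). Ddx58 was most like Samd9l (0.973), an interferon-stimulated antiviral gene, and Gm34866 (0.95), while Oas1a was most like Parp10 and Apba3 (0.877 each). The genes most like Rsad2 were not on any interferon list: Acad8, an acyl-CoA dehydrogenase (0.966), and Hexim1, an inhibitor of transcription elongation (0.948), and its closest interferon-stimulated gene was Helz2 (0.848).

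Interferon genes themselves were silent at this depth. Of 21 genes for type I, II and III interferons, 18, among them Ifnb1, Ifng and 13 Ifna genes, had no read in any of the 9 embryos. The other 3 (Ifnab, Ifnk and Ifnz) had 7 reads in all, with at most 3 in 1 embryo. The level that 3 reads give lay between 0.0412 and 0.139 FPKM for these short genes, so a level below this was not detectable, and reads shared between the near-identical Ifna copies would have been removed by the mapping-quality filter. The same held for Dnmt3bCI/CI replicate 3, in which no Ifnb1, Ifng or Ifna read was found.

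The receptors and signal transducers of interferon were expressed in every embryo. Of 17 such genes, all were tested, and in Dnmt3b-/- against Dnmt3b+/+ 1 rose and 3 fell by the adjusted p, where 25.8% of all genes passed in either direction, while in Dnmt3bCI/CI against Dnmt3b+/+ 0 passed (limma; 2 at an unadjusted p under 0.05, and 0 without Dnmt3bCI/CI replicate 3). In the knockout 1 rose and 2 fell without Dnmt3bCI/CI replicate 3, and 1 rose and 1 fell after quantile normalization. Of all 19397 genes, 1454 rose and 2534 fell without that embryo, and 2236 and 2044 after quantile normalization. The receptor chain Ifnar2 fell from 4.10 ± 0.214 FPKM (SD, n = 3) in Dnmt3b+/+ to 3.37 ± 0.106 FPKM in Dnmt3b-/- embryos (log2 fold change -0.27, adjusted p = 0.0143 by limma). Ifnar1 fell by 0.17 and the kinase Jak2 by 0.34 on the log2 scale, and the feedback inhibitor Socs3 rose by 0.30, a rise that did not pass without Dnmt3b+/+ replicate 2. No change in this group reached a fold of 2.

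Sensors and adaptors other than the members passed the test about as often as all genes did in the knockout. Of 24 genes, 21 were tested, and in Dnmt3b-/- against Dnmt3b+/+ 0 rose and 5 fell by the adjusted p, against 25.8% of all genes in either direction, with a median of -0.10 (all genes -0.07). After quantile normalization 0 rose and 3 fell, with a median of 0.00 (all genes 0.03, with 2236 higher and 2044 lower). In Dnmt3bCI/CI against Dnmt3b+/+ 0 passed (limma; 1 at an unadjusted p under 0.05, and 0 without Dnmt3bCI/CI replicate 3). Between the mutants 9 were lower in Dnmt3b-/-, against 27.9% of all genes in either direction, and the number was 4 without Dnmt3bCI/CI replicate 3 and 2, with 1 higher, after quantile normalization. Over all 19397 genes, 1137 were higher and 2053 lower without that embryo, and 2840 and 2281 after quantile normalization. Tlr7, 1 of the 9, was tested only through Dnmt3bCI/CI. Of the other 20 genes tested 8 passed, against 28.1% of all genes kept in the same way. The DNA sensor cGAS, listed as Mb21d1, was at 0.548, 0.443 and 0.624 FPKM in Dnmt3b+/+, 0.243, 0.160 and 0.179 FPKM in Dnmt3b-/- and 0.599, 0.459 and 0.454 FPKM in Dnmt3bCI/CI embryos. It was lower in every knockout embryo than in any other embryo, and it passed both thresholds relative to Dnmt3b+/+ (log2 fold change -1.12, SE 0.17, adjusted p = 0.00327 by limma) and to Dnmt3bCI/CI (-1.04, adjusted p = 0.00377). The fold, though not the adjusted p, fell short in some alternatives: quantile normalization gave -0.92 and -0.79, a pseudocount of 1 FPKM gave -0.36 and -0.33, and between the mutants median-of-ratios scaling gave -0.98, leaving out Dnmt3b-/- replicate 2 gave -0.96 and leaving out Dnmt3bCI/CI replicate 1 gave -0.93. Relative to Dnmt3b+/+, the kinase Ikbke fell by 0.55 on the log2 scale and the adaptors Traf3 and Ticam1 by 0.31 and 0.28.

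Interferon-stimulated genes beyond the members showed no common rise in the knockout. Of the 40 tested, 1 rose and 3 fell by the adjusted p in Dnmt3b-/- against Dnmt3b+/+ (25.8% of all genes passed in either direction), 31 had a log2 fold change below 0, and the median was -0.16 (all genes -0.07). After quantile normalization 5 rose and 1 fell, 20 were below 0, and the median was -0.01 (all genes 0.03). Without Dnmt3bCI/CI replicate 3, 2 rose and 3 fell, and without Dnmt3b+/+ replicate 2, 1 rose and 2 fell. Of all 19397 genes, 2236 rose and 2044 fell after quantile normalization. The numbers were 1454 and 2534 without Dnmt3bCI/CI replicate 3, and 1160 and 2309 without Dnmt3b+/+ replicate 2. The gene that rose with all embryos was Phf11d, which had 0, 0 and 4 reads in Dnmt3b+/+, 21, 35 and 22 in Dnmt3b-/- and 7, 4 and 8 in Dnmt3bCI/CI embryos. It was tested only because all 3 Dnmt3b-/- embryos reached 0.1 FPKM (0.117, 0.183 and 0.121 FPKM), which no other embryo did, so the filter fixed its direction, and its fitted log2 fold change of 1.12 ranged from 0.17 to 4.83 over the alternatives. Of the 38 genes that did not depend on Dnmt3b-/- to be tested, 0 rose and 3 fell by the adjusted p. Those that fell were the ADP-ribosyltransferase Parp12 (-0.57), the interferon-induced protein Nmi (-0.45) and the RNA helicase Znfx1 (-0.40). In Dnmt3bCI/CI against Dnmt3b+/+ 0 of the 40 passed the adjusted p in limma, 8 had an unadjusted p under 0.05 and 38 were above 0, with a median of 0.40 (all genes 0.02, with 10803 of 19397 above 0). Without Dnmt3bCI/CI replicate 3 the numbers were 0, 2 and 32, with a median of 0.23. Without Dnmt3b+/+ replicate 2, which was the lowest embryo for 14 of the 40 (35%, against 19.8% of all genes), they were also 0, 2 and 32, with a median of 0.26. At the unadjusted p in limma, 524 of all 19397 genes were higher and 495 lower with all embryos. These were 402 and 452 without Dnmt3bCI/CI replicate 3, and 466 and 492 without Dnmt3b+/+ replicate 2. Parp14 and Gbp2 were tested only through Dnmt3bCI/CI. Of the 38 genes without them 0 passed the adjusted p, with a median of 0.40. Ifi27 was at 1.73, 1.87 and 2.29 FPKM in Dnmt3b+/+, 2.02, 1.72 and 1.51 FPKM in Dnmt3b-/- and 4.49, 3.45 and 6.33 FPKM in Dnmt3bCI/CI embryos, so all 3 Dnmt3bCI/CI embryos were above the other 6 (log2 fold change 1.2 against Dnmt3b+/+, SE 0.21, adjusted p = 0.179 by limma).

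Between the mutants, 12 of the 40 were lower and 1 was higher in Dnmt3b-/- than in Dnmt3bCI/CI by the adjusted p (27.9% of all genes passed), with a median of -0.48 (all genes -0.08). Parp14, 1 of the 12, was tested only through Dnmt3bCI/CI, and Phf11d, the 1 higher, only through Dnmt3b-/-. Of the 38 genes that did not depend on Dnmt3bCI/CI to be tested, 12 passed in either direction, with a median of -0.48. Ifi27 (log2 fold change -1.36, adjusted p = 0.00317), Bst2 (-1.06, adjusted p = 0.0401) and Irgm1 (-1.03, adjusted p = 0.0247) also passed the fold threshold in limma. The call of Ifi27 held in all 19 alternatives, that of Irgm1 in 11 of 18 and that of Bst2 in 5 of 19, and those of Irgm1 and Bst2 were lost under both other scalings. Without Dnmt3bCI/CI replicate 3, 8 were lower and the median was -0.35, and Bst2 and Irgm1, at -0.61 and -0.70, were no longer called. In that fit 1137 of all 19397 genes were higher and 2053 lower by the adjusted p. After quantile normalization 5 were lower and 1 was higher, with a median of -0.25 (all genes 0.03, with 2840 higher and 2281 lower).

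Markers of macrophages, the main immune cells of the embryo at this stage, also differed between the genotypes. Of 16 macrophage and leukocyte markers, 15 were tested; in Dnmt3b-/- against Dnmt3b+/+ 6 fell and 1 (Cd68) rose by the adjusted p with a median of -0.28, and between the mutants 11 were lower in Dnmt3b-/- with a median of -0.61. The shares of all genes past the adjusted p were 25.8% and 27.9%. Without Dnmt3bCI/CI replicate 3 these numbers were 5 lower and 0 higher, and 6 lower. Of all 19397 genes, 3988 and 3190 then passed the adjusted p in these comparisons, in either direction. After quantile normalization 1 fell and 1 rose in the knockout against Dnmt3b+/+, with a median of -0.18, and 6 were lower between the mutants, with a median of -0.38. Under that scaling 2236 of all 19397 genes rose and 2044 fell in the knockout. Between the mutants 2840 were higher and 2281 lower in Dnmt3b-/-. In Dnmt3bCI/CI against Dnmt3b+/+ 0 passed the adjusted p in limma, 3 had an unadjusted p under 0.05, and the median was 0.20. The mannose receptor Mrc1 was at 1.90, 2.02 and 2.31 FPKM in Dnmt3b+/+, 1.4, 1.12 and 1.22 FPKM in Dnmt3b-/- and 2.62, 2.02 and 1.96 FPKM in Dnmt3bCI/CI embryos. Summed over the 16 markers the level was 33.6 to 38.0 FPKM in Dnmt3b+/+, 26.1 to 34.5 FPKM in Dnmt3b-/- and 38.6 to 44.6 FPKM in Dnmt3bCI/CI embryos. Dnmt3bCI/CI replicate 3 was the highest embryo for 8 of the 15 (53.3%), against 10.7% of all genes tested. Its sum was 44.6 FPKM, and replicate 2 had the next highest sum, 43.4 FPKM. No marker of this list was without reads, and the lowest in FPKM, the pan-leukocyte gene Ptprc, had 31 to 76 reads per embryo. Of 10 markers of plasmacytoid dendritic, B and T cells 3 were tested (Bst2, Cd79a and the widely expressed Tcf4). In Dnmt3b-/- against Dnmt3b+/+ Tcf4 fell by 0.36, and it alone passed the adjusted p, as 25.8% of all genes did. Bst2 was at -0.38 and the B cell gene Cd79a at 0.50 (adjusted p = 0.412 and 0.0969 by limma), and Cd79a was higher in all 3 Dnmt3b-/- than in all 3 Dnmt3b+/+ embryos, with 18 or 19 against 7 to 16 reads. The other 7 markers had at most 12 reads in any embryo; Siglech had 1 read in each Dnmt3b-/- embryo and 3 to 12 in the others, and the T cell gene Cd3e had at most 2. The part that differences in these cells have in the levels of the members was not tested.

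Enzymes that clear RNA and DNA limit sensing, and MHC class I genes are induced by interferon. Of 9 clearance enzymes, 2 rose and 1 fell in Dnmt3b-/- against Dnmt3b+/+ by the adjusted p, where 25.8% of all genes passed. Rnaseh2c, a subunit of the RNase H2 that removes RNA from RNA:DNA hybrids, was at 18.3, 15.7 and 17.4 FPKM in Dnmt3b+/+ and at 37.9, 32.5 and 28.9 FPKM in Dnmt3b-/- embryos, with 16.9, 21.1 and 18.6 FPKM in Dnmt3bCI/CI (log2 fold change 0.94 in the knockout, SE 0.12, adjusted p = 0.00157 by limma). Rnaseh2a rose by 0.38, and Dnase2a fell by 0.74 with overlapping groups, a fall that did not pass without Dnmt3b+/+ replicate 2 or Dnmt3bCI/CI replicate 3, or under either other scaling. Of 9 tested MHC class I genes, against the same 25.8%, 2 rose (the peptide transporter Tap1 by 0.76 and the heavy chain H2-K1 by 0.49) and 2 fell (tapasin, Tapbp, by 0.81 and the immunoproteasome subunit Psmb8 by 0.70). Between the mutants 2 were higher and 3 lower in Dnmt3b-/- by the adjusted p (27.9% of all genes passed), and Psmb8, with 8, 10 and 7 reads in Dnmt3b-/- and 32, 26 and 33 in Dnmt3bCI/CI embryos, was called (log2 fold change -1.06, SE 0.13, adjusted p = 0.00142 by limma). That call held in 15 of 18 alternatives and was lost at a pseudocount of 1 FPKM (-0.23), after quantile normalization (-0.81) and when Dnmt3bCI/CI replicate 3 was left out (-0.96). In Dnmt3bCI/CI against Dnmt3b+/+ 0 genes of either group passed the adjusted p in limma, and 0 and 3 had an unadjusted p under 0.05, of which the 3 became 0 without Dnmt3bCI/CI replicate 3 and 1 without Dnmt3b+/+ replicate 2.

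**Figure D4:**
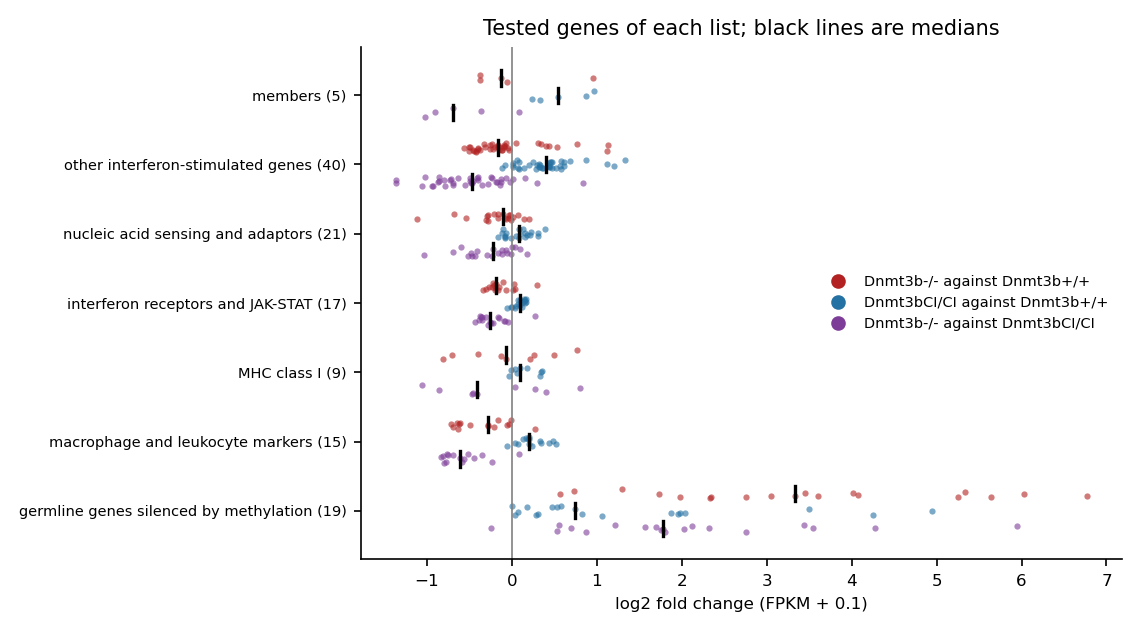
Log2 fold change of FPKM + 0.1 (x axis) of the tested genes of each list (y axis, number of genes in brackets) in the 3 comparisons; each dot is 1 gene and black lines are medians. The medians of the interferon lists lie between -0.70 and 0.54, and of the 19 germline genes shown 8 were tested only through their level in Dnmt3b-/-.

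Germline genes, whose promoters are kept silent by DNA methylation, show what the same libraries register at genes of this kind. Of the 19 tested, 8 reached 0.1 FPKM in 3 embryos only through Dnmt3b-/-, so the filter fixed their direction in that comparison. Of the other 11, 9 were called higher in Dnmt3b-/- against Dnmt3b+/+, against 4.24% of all genes kept in the same way and called in either direction. None of the 19 was tested through Dnmt3bCI/CI alone, and 7 were called higher in Dnmt3bCI/CI against Dnmt3b+/+, against 0.129% of all genes. Some of these genes were picked by the study on these samples, so their direction is not independent evidence. The mitochondrial carrier Slc25a31 was at 0.0947, 0.132 and 0.0839 FPKM in Dnmt3b+/+ and at 14.2, 13.3 and 12.2 FPKM in Dnmt3b-/- embryos. In Dnmt3bCI/CI embryos it was at 4.14, 3.99 and 3.23 FPKM, so both mutants were far above the Dnmt3b+/+ embryos, and its level in either mutant exceeded that of every member in every embryo.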

How the data were processed

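Whole-embryo RNA-seq libraries at E11.5 from 3 genotypes, 3 embryos each, were analysed. Per the study's methods, the authors trimmed paired-end reads, aligned them to mm10 with STAR, discarded alignments of low mapping quality, and summed reads over genes with SeqMonk; the deposited values are FPKM per gene, and the strand setting and annotation release are not given in the sources used here. The table held 34245 rows, of which 1 without a gene name was left out. A gene without reads carries a value worth 0.9 reads, and the reads behind the FPKM values were worked back for 33144 genes (96.8%), including all members, as whole numbers within 0.05 reads. The libraries were normalised to 38451730 to 49808778 reads. Intervals and the limit of 3 reads cover counting error only.

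Log2(FPKM + 0.1) was modelled by limma (version 3.58.1, R version 4.3.3), with a variance trend, for the 19397 genes that reached 0.1 FPKM in 3 or more embryos, with all 9 embryos in 1 model and Benjamini-Hochberg adjustment over all genes of a comparison. Calls needed an adjusted p under 0.05 and a fold of at least 2. The code was tested on simulated data. P-values measure the spread between embryos, which the labels call independent. The members and lists were chosen with earlier results of these data known; 2 list symbols were not matched. The rule for named genes took all members, Dnmt3b, genes of each list past the adjusted p (otherwise its 4 most expressed), and the genes most correlated with each member, and the text gives examples of these; Cmpk2, Rtp4, Ptprc, Cd79a, Cd3e, Siglech, Ifi44, Oasl2, Xaf1, Ifit1bl2, Ifit3b, Cxcl10, Usp18, Slfn5, Afp and Myh6 were named after their values were seen. Ifit2, Iigp1, Ifi204 and Gbp2 were also named after their values were seen. Promoter sequences were from RefSeq on GRCm38.p6, and gene positions from GENCODE M21 on GRCm38. Bisulfite sequencing was not analysed here, and some genes of the lists are not reported here by name. List counts without Dnmt3bCI/CI replicate 3 or Dnmt3b+/+ replicate 2 and under other scalings were added after seeing the data. Alternatives were another pseudocount, filter, scaling, variance model, subset, a replicate block, leaving out each embryo, and voom on reads.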

Additional observations from a re-analysis of the deposited data

How the results depend on the processing

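The number of members called in Dnmt3b-/- against Dnmt3b+/+ was 0, and it was 1 (Rsad2) with a pseudocount of 0.01 FPKM, with median-of-ratios scaling, with quantile normalization, with voom on the reads and with the adjusted p alone. It ranged from 0 to 1 when 1 embryo was left out, with 1 without Dnmt3b+/+ replicate 1 or 3 or Dnmt3b-/- replicate 3. The log2 fold change of Rsad2 then ranged from 0.82 to 1.1. Over all 18 alternatives it ranged from 0.29, with a pseudocount of 1 FPKM, to 1.34, with an adjusted p under 0.05 in each (0.00264 to 0.036). In Dnmt3b-/- against Dnmt3bCI/CI the number was 0, and it was 1 with the adjusted p alone (Ddx58) and 0 to 1 with 1 embryo left out (Isg15, without Dnmt3bCI/CI replicate 2, with -1.33 and an adjusted p of 0.0455 by limma). In Dnmt3bCI/CI against Dnmt3b+/+ it was 0 under every alternative run.

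Signs turned for uncalled values. In Dnmt3b-/- against Dnmt3b+/+, quantile normalization gave 0.14 for Isg15 and 0.05 for Oas1a, and leaving out 1 embryo gave -0.20 to 0.09 for Isg15 and -0.32 to 0.05 for Oas1a. Leaving out 1 embryo gave, in Dnmt3bCI/CI against Dnmt3b+/+, -0.04 to 0.93 for Irf7 and -0.26 to 0.57 for Oas1a, and, between the mutants, -0.69 to 0.14 for Oas1a; the value that turned was the one without Dnmt3bCI/CI replicate 3. The cause was not tested for the scaling. A filter of 1 FPKM left no member to test. Over all genes, the calls in Dnmt3b-/- against Dnmt3b+/+ went from 208 higher and 655 lower to 60 and 133 with a pseudocount of 1 FPKM, 96 and 388 with a filter of 1 FPKM, 272 and 392 after quantile normalization, and 253 and 1174 without Dnmt3b-/- replicate 1. Between the mutants they went from 213 and 838 to 57 and 185, 105 and 492, 330 and 495, and 258 and 1346. With 1 embryo left out, the genes with an adjusted p under 0.05 numbered 2438 to 6903 and 3074 to 7243, against 5001 and 5407, and the former was 2740 with only the 2 genotypes compared in the model. In Dnmt3bCI/CI against Dnmt3b+/+ the 25 calls went to 8 with a pseudocount of 1 FPKM, and the 28 genes with an adjusted p under 0.05 to 19 to 32 with 1 embryo left out.

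Embryos with the same number did not resemble one another (mean correlation of deviations -0.0866, against 0.0478 for other pairs), so the numbers were not taken as pairs. With the replicate block, 0 members were called in each comparison, the adjusted p of Rsad2 was 0.0314 and that of Ddx58 between the mutants 0.0256, and the genes with an adjusted p under 0.05 in Dnmt3b-/- against Dnmt3b+/+ went from 5001 to 3029, and from 28 to 18 in Dnmt3bCI/CI against Dnmt3b+/+. With 3 embryos per genotype and few reads on most members, standard errors were 0.17 to 0.42 log2 units.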
